A study of Mus musculus with 32 samples.

Results

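Of 28 single-cell libraries from the mouse subventricular zone, 2 were selected on one gene: cells S11 and S14, the only cells of S1 to S17 in which Acsbg1 reached an FPKM of 100. Acsbg1 encodes an acyl-CoA synthetase of very long chain fatty acids that is used as an astrocyte marker. The series also held 4 libraries made from 10 cells each, all from tissue taken at postnatal day 21, and the labels named no treatment, genotype, strain, animal or sort. The 15 other cells of S1 to S17 were the comparison, and cells S18 to S28 (11 cells) and the pools were read beside them. Because Acsbg1 chose the cells, its level of 403 FPKM in S11 and 259 in S14 is a description and not a finding. The next cell of S1 to S17, S10, had 0.258, so no cell lay near the threshold. FPKM scales the fragments of a gene by its transcript length in kilobases and by every 1000000 fragments mapped, and a gene was counted as found at an FPKM of at least 1. Each cell is 1 library with no repeat, so values carry no SD and no test of a difference was made between 2 cells. Whether S11 and S14 came from the same animal is not given in the sources used here.

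Astrocytes take up glutamate and GABA released by neurons, buffer potassium, hold glycogen and supply lipids and lactate to other cells. In the subventricular zone, the neural stem cells are themselves astroglia: quiescent stem cells share transporters such as Slc1a3 and the filament protein Gfap with parenchymal astrocytes. Activated stem cells turn on Egfr and cell cycle genes and give rise to neuroblasts. Astrocyte genes alone therefore do not part a mature astrocyte from a quiescent stem cell, and genes of both states are given for each cell.

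The libraries of both cells were of similar estimated depth, at about 14.3 in S11 and 15.7 in S14, in units of 1000000 fragments. One fragment on a transcript of 2 kb was then worth about 0.0389 FPKM in S11 and 0.0355 in S14. Genes found differed more: 7278 in S11 and 3916 in S14, against a median of 5932 (range 3062 to 10169) in the other 15 cells. In S14 the 10 most abundant lines took 30.6% of all FPKM, and the mitochondrial serine tRNA mt-Ts1 alone was at 148085. In S11 the 10 most abundant lines took 17.6%. Protein-coding genes made up 51.4% of the FPKM of S14 and 64.3% of that of S11. A gene listed at 0 in S14 therefore stands in a library with fewer genes found, and what part this has in any single difference between the cells was not tested.

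Pool 4 was not an independent source of astrocyte RNA. Genes private to 1 cell were taken as those at an FPKM of at least 20 in that cell and under 1 in the other 27 single cells. S11 had 89 private genes, of which 79.8% were in pool 4 at over 1% of the level of S11, at a median of 13.4% of it. S14 had 35, of which 91.4% were in pool 4, at a median of 11.8% and with quartiles of 10.4% and 12.6%. Pmel, for example, was at 448 FPKM in S14 and 46.7 in pool 4, and Crym was at 2277 in S11 and 305 in pool 4. The same held for S4, S5, S12, S13 and S15, so that pool 4 carried the private genes of 7 cells, at medians of 11.8% to 19.1%. These 7 medians added up to 99.6%. For the other 10 cells of S1 to S17, no more than 1.69% of private genes were in pool 4. The sum of the 7 cells, each weighted by its median, lay within 2-fold of pool 4 for 5060 of 5237 protein-coding genes at an FPKM of at least 10 in the pool (96.6%). Only 5 of those 5237 genes were under 1 in all 7 cells. Pool 3 stood in the same relation to 9 other cells, whose medians added up to 101%. No private gene of S11 or S14 passed 1% in pool 3. Whether reads or material were shared was not tested, and no result rests on pool 4.

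**Figure D1:**
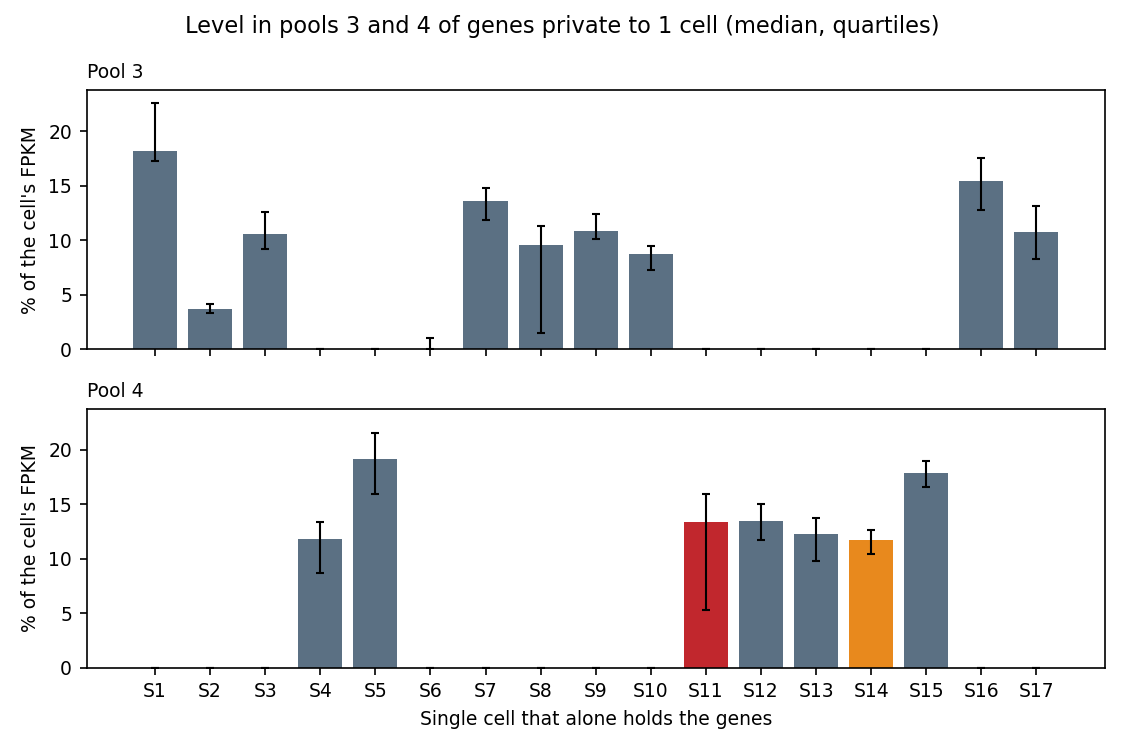
Bars give the median level of genes private to 1 cell in pool 3 and pool 4, as a percent of the FPKM in that cell, for cells S1 to S17; whiskers are quartiles over genes. Private genes of S11 (red, median 13.4%) and S14 (orange, median 11.8%) were in pool 4 and not in pool 3.

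Ntsr2, Gjb6 and Acsbg1 were among the genes with the largest gap between both cells and all others, and the bases before their starts are shown because the genes were high together in the same 2 cells. Each line gives the 250 bases before one RefSeq start (GRCm38.p6), 5′ to 3′ on the strand of the gene. Capitals mark a short motif of nuclear factor I, TTGGC on either strand. Nuclear factor I proteins, among them Nfia and Nfib, are transcription factors of glial genes.
Acsbg1, chr9:54661886-54662135, minus strand: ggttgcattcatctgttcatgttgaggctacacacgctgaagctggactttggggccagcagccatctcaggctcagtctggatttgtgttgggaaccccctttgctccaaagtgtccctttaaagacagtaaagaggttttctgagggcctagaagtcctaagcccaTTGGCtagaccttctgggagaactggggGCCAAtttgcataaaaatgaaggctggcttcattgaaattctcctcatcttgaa
Ntsr2, chr12:16653220-16653469, plus strand: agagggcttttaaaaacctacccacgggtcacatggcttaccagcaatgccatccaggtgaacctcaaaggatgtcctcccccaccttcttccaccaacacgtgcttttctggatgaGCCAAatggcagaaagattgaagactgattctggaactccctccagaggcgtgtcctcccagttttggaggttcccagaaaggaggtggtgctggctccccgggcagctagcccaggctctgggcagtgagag
Gjb6, chr14:57133612-57133861, minus strand: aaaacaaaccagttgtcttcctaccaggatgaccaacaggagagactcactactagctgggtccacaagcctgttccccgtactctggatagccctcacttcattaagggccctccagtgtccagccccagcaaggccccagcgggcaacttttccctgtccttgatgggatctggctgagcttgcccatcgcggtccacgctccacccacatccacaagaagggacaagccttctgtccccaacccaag
The window of Acsbg1 held this motif 2 times, that of Ntsr2 held it 1 time and that of Gjb6 did not hold it. Among the 65 protein-coding genes of the set described further on, 49 had windows in RefSeq, 78 in all. Of these windows, 46 (59.0%) held TTGGC, against 41.5% of all 32851 windows. The longer palindrome, TTGGC and GCCAA with 5 bases between them, contains the short motif and was in 1 of the 78 windows, at Hrh1, and in 12 of all windows. The core ACAATG, bound by SOX proteins, was in 2 of the 78 (2.56%), at Abr and Dbx2, and in 10.7% of all windows. A match of letters is a description of the window and not a bound site.

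The other 3 markers named for these cells, which the rule had not used, were read beside Acsbg1. Members and gene lists were chosen with earlier results of these data known, so this is no independent check of the label. Slc1a3, the glutamate transporter GLAST (chromosome 15, 8634124 to 8710764, GRCm38), was at 1197 FPKM in both S11 and S14. Its median in the other 15 cells was 0.786 and its highest value was 198, in S15. Slc1a2, the glutamate transporter GLT-1, was at 636 in S11 and 105 in S14, against a highest other value of 60.7 in S10. Gja1, the gap junction protein connexin 43, was at 449 and 116, against a highest other value of 50.4 in S7. For each of these 3 genes both cells lay above all 15 others, so the groups did not overlap, as for 258 of 17926 genes found in some cell of S1 to S17 (1.44%). S11 and S14 were equal in Slc1a3, whereas S14 had the lower level of both Slc1a2 and Gja1. In cells S18 to S28, Acsbg1 was listed at 0 throughout, and Slc1a3 reached no more than 11.1. In pools 1 to 3, Acsbg1 was listed at 0 and Slc1a3 was at 6.67, 2.08 and 4.76.

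**Figure D2:**
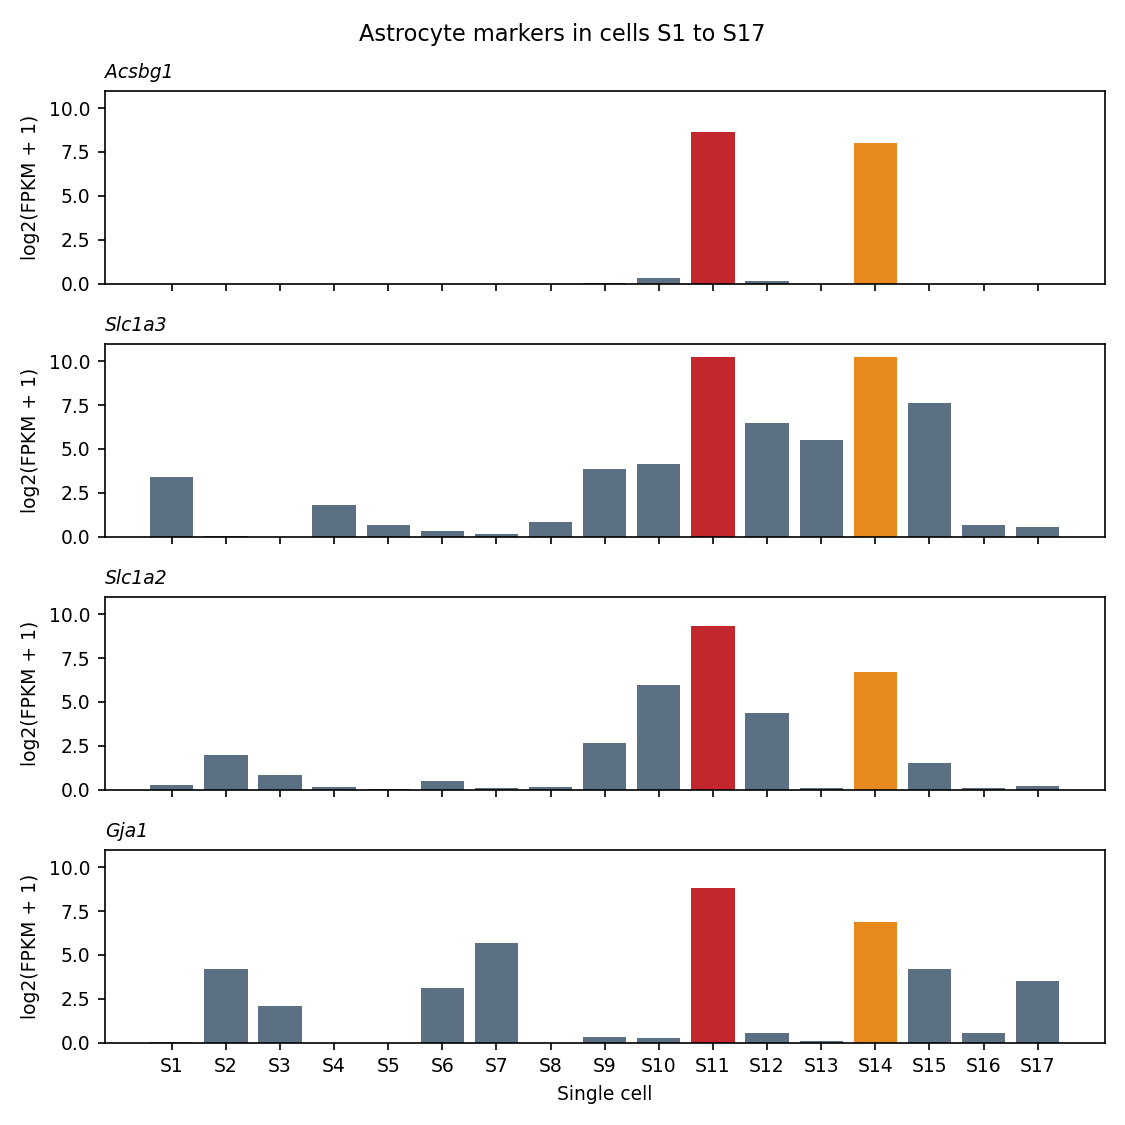
Bars give log2(FPKM + 1) of 4 astrocyte markers in cells S1 to S17, with S11 in red, S14 in orange and the other 15 cells in grey. Acsbg1, which chose the cells, was at 403 and 259 FPKM in S11 and S14 and at no more than 0.258 in the others, and the other 3 markers were also highest in these cells.

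Genes of mature astrocyte function were present almost in full in both cells. Of 52 such genes in 5 lists, S11 had 49 and S14 had 45, and 44 were found in both. The other 15 cells had a median of 11 and at most 32, in S12. Both cells lay at least 4-fold above every other cell for 13 of the 52, on a scale of FPKM + 1. Over all 17926 genes found in some cell of S1 to S17 this held for 68, or 0.379%. Acsbg1, which chose the cells, is 1 of the 13. The summed FPKM of the 52 genes was 42715 in S11 and 34765 in S14, against a median of 2579 and a highest value of 20746, in S15.

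Among transporters of glutamate, GABA and glycine, all 8 genes were found in both cells. Slc6a11, the GABA transporter GAT-3, was at 41.5 FPKM in S11 and 60.2 in S14, with a highest other value of 17.3. Glul, glutamine synthetase, was at 1124 and 2113. Glul was not particular to them in level, since S2 had 1050 and the median of the others was 74.2. Slc7a10, a transporter of small neutral amino acids, was at 621 and 1224, and S5 also had 750.

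Among gap junction and ion transport genes, some were far above the other cells and some were not. Gjb6, connexin 30 (chromosome 14), was at 654 FPKM in S11 and 1891 in S14, and no other cell passed 0.383. Atp1b2, a subunit of the sodium pump, was at 363 and 1248, with a highest other value of 113. By contrast, 2 genes typical of astrocyte endfeet were higher in some other cells, though near 0 in most. Aqp4, the water channel, was at 10.1 and 3.63. S15 had 147 and S9 had 40.3, and the median of the others was 0. Kcnj10, the potassium channel Kir4.1, was at 26.98 in S11 and 1.03 in S14. S13 had 102, S12 had 69.1 and S4 had 16.4, and the remaining cells did not pass 0.378. Mlc1, a membrane protein of endfeet, was at 383 and 244 and was highest in S15, at 910.

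Genes of lipid handling were high in both cells. Apoe, the main lipid carrier of the brain, was at 3466 FPKM in S11 and 3265 in S14, and Clu, a second carrier, was at 4638 and 3587. S15 had more of both, at 4212 and 10782. Elovl2, which elongates polyunsaturated fatty acids, was at 104 and 79.3, and its highest other value was 0.0754. Acsl6, an acyl-CoA synthetase, was at 344 and 492, and Acsl3 was at 609 and 1639. All 12 genes of this list were at 10 FPKM or more in either cell. Of these, 4 (33.3%) were at least 4-fold higher in S11 and none was so in S14. Over all genes the shares were higher, at 56.8% and 18.2%. Fabp7, a fatty acid binding protein of radial glia and astrocytes, was at 583 in S11 and 27.1 in S14. Lcat, which esterifies cholesterol, was at 163 in S11 and listed at 0 in S14.

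Among the 5 astrocyte lists, the enzymes held the largest share of genes that differed between S11 and S14. Of 8 genes in this list at an FPKM of at least 10 in either cell, 6 (75%) were at least 4-fold higher in S11 and none was so in S14. Over all genes the shares were 56.8% and 18.2%. Aldoc, the brain form of aldolase, was at 8498 FPKM in S11 and 1906 in S14, with a highest other value of 1004. Aldh1l1, a folate enzyme that marks astrocytes, was at 157 and 21.7. Ckb, brain creatine kinase, was at 3969 and 803. Phgdh, the first enzyme of serine synthesis, was within 4-fold at 1017 and 625, as was Ndrg2 at 2428 and 3157. Maob was under 0.1 in both cells and at 164 in S16.

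Surface receptors differed little between S11 and S14. Of 11 receptor genes at 10 FPKM or more in either cell, 10 were within 4-fold, against 1417 of all 5684 genes at that level. The remaining one, Grm5, a metabotropic glutamate receptor, was listed at 0 in S11 and at 10.5 in S14. Ntsr2, a neurotensin receptor (chromosome 12, 16653382 to 16660227), was at 787 and 1156, and no other cell passed 0.195. Fgfr3, a fibroblast growth factor receptor, was at 408 and 263. F3, tissue factor, was at 435 and 1038. Ednrb, the endothelin B receptor, was at 86.2 and 298. The highest other values of these 3 genes were 11.8, 20.4 and 16.1. Gpr37l1, an orphan receptor of astrocytes, was at 2315 and 2466. S1pr1, a receptor of sphingosine-1-phosphate, was at 912 and 734, and S8 had 751, above S14.

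**Figure D3:**
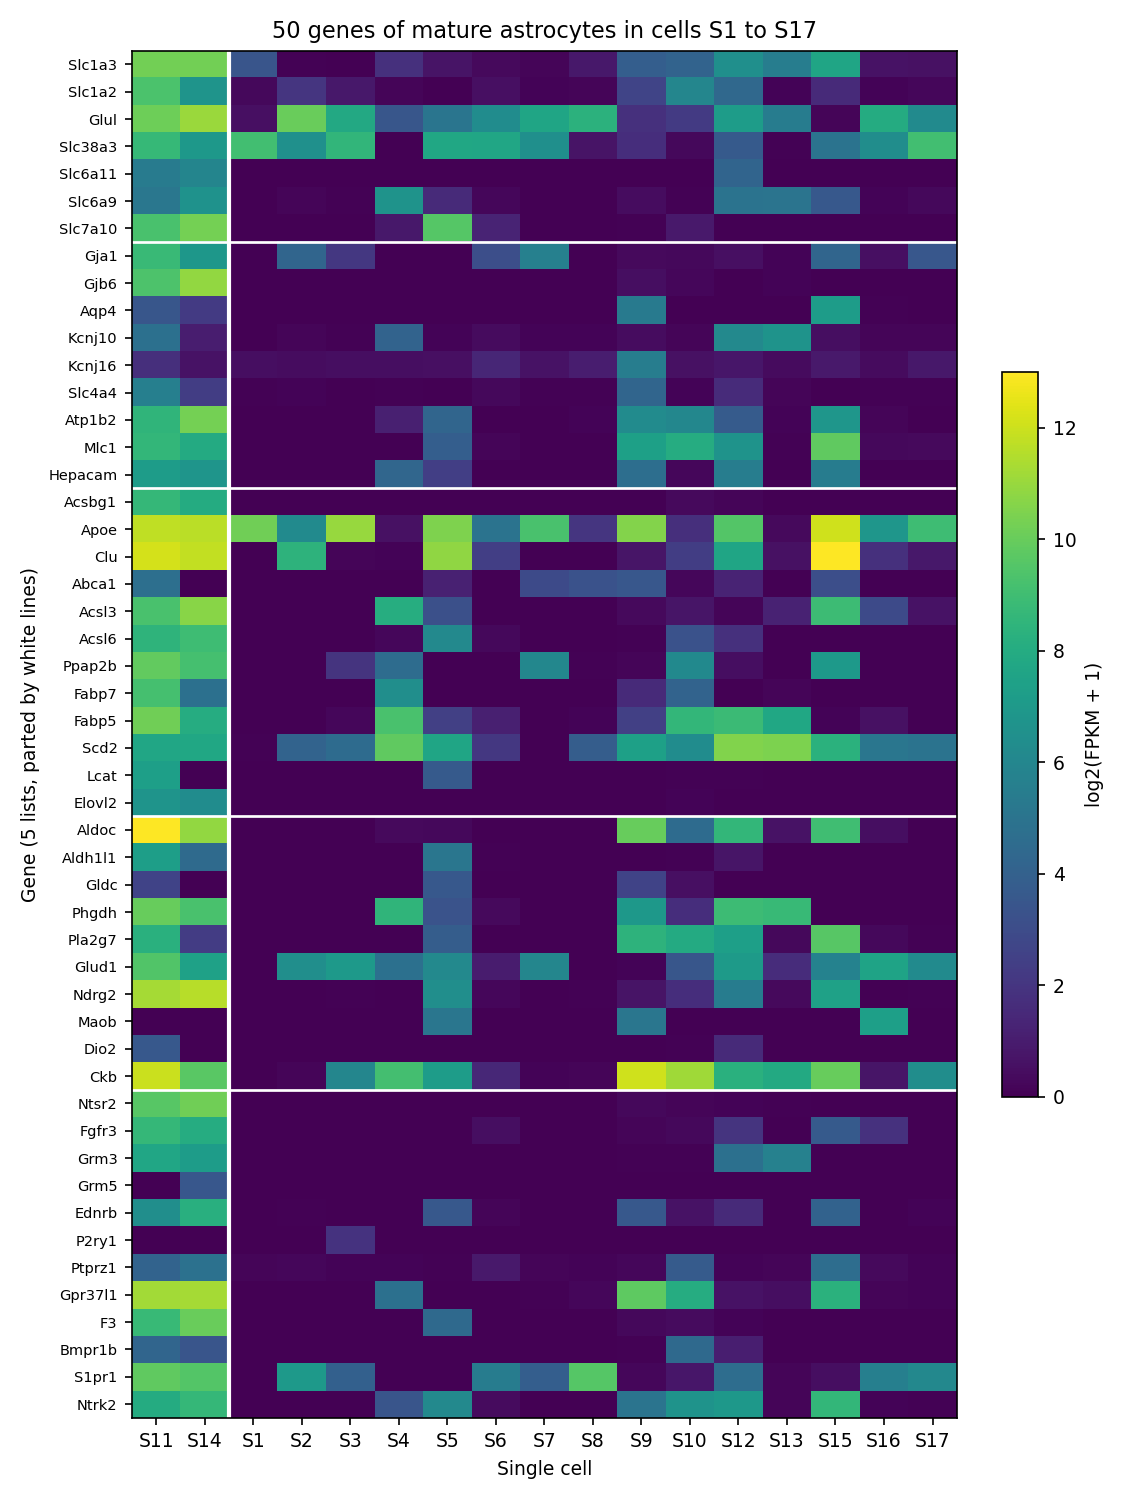
Colour gives log2(FPKM + 1) of 50 of the 52 astrocyte genes (rows, 5 lists parted by white lines) in S11 and S14 (left of the thick line) and the other 15 cells of S1 to S17. Of all 52, 49 genes in S11 and 45 in S14 were at an FPKM of at least 1, and scattered members of the lists were also present in S5, S9, S10, S12 and S15.

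The 68 genes at least 4-fold above all 15 other cells in both S11 and S14 were 65 protein-coding genes and 3 noncoding ones. Of these, 50 were in none of the lists. Taken alone, S11 had 464 genes this far above the other 15 cells and S14 had 348. Without S9, S10 and S15, the count for both was 111, an alternative chosen after the values were seen. S9, S10 and S15 held 24, 22 and 26 of the 52 astrocyte genes, whereas S5 and S12, which were kept, held 27 and 32. Of 12 ependymal genes, S9, S10 and S15 held 12, 7 and 10. In cells S18 to S28, 42 of the 68 were under 1 in every cell. The loci of 26 overlapped another line of the table, so their values may hold reads of the neighbour. Cldn10, Entpd2, Cyp7b1, Acsl6, Egfr and Ncan are among these 26. Of the 68, 53 were within 4-fold between S11 and S14, and 46 were higher in S14. The rule favours such agreement, since both cells had to be high. Among all 5684 genes at an FPKM of at least 10 in either cell, 1417 were within 4-fold.

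Several of the 68 genes with no other cell above 1 FPKM are known from astrocytes or glia. Cldn10, a claudin, was at 313 FPKM in S11 and 902 in S14, with a highest other value of 0.227. Aqp9, a channel for glycerol and water, was at 195 and 274. Entpd2, which breaks down extracellular ATP, was at 253 and 139. Etnppl, an enzyme of phosphoethanolamine breakdown, was at 106 and 481. Hrh1, the histamine H1 receptor, was at 51.1 and 381. Cyp7b1, a hydroxylase of oxysterols, was at 58.7 and 107. These genes range from receptors to lipid enzymes, and the highest value of any of them in another cell was 0.397. Etv5, a transcription factor downstream of growth factor signals, was at 38.8 and 113, and Dbx2, a homeobox gene of the embryonic neural tube, was at 107 and 103. Fjx1 was at 80.7 and 75.02, so Dbx2 and Fjx1 were nearly equal in the 2 cells.

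Genes of the nervous system and its matrix were also among the 68. Trim9, a ubiquitin ligase of the nervous system, was at 327 FPKM in S11 and 106 in S14. The brain chondroitin sulphate proteoglycans Ncan, Bcan and Cspg5 all passed: Ncan was at 21.4 and 174, Bcan at 589 and 84.9, and Cspg5 at 257 and 135. Ncan was thus the higher in S14 and Bcan the higher in S11. Not all of these were low in cells S18 to S28. Trim9 reached 126 in S22, Ncan 141 in S23 and Cspg5 8.87 in S24, whereas Bcan did not pass 0.661. Mfge8, a secreted protein that tags dying cells for uptake, was at 1772 and 1689. Of 12 genes for secreted and matrix proteins, 9 were found in both cells. Ptn, the growth factor pleiotrophin, was at 1259 in S11 and 1.15 in S14. Sparcl1 was at 1714 and 2416, and Cst3, cystatin C, was at 6855 and 3144. Cst3 and Sparcl1 were present in most cells: their medians in the other 15 were 689 and 253.

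Over all genes, S11 and S14 differed widely. Of the genes found in each, 2817 were found in both, which is 38.7% of those of S11 and 71.9% of those of S14. Among 5684 genes at an FPKM of at least 10 in either cell, 3230 (56.8%) were at least 4-fold higher in S11 and 1037 (18.2%) were at least 4-fold higher in S14. Of the 3230, 85.1% were under 1 in S14, and of the 1037, 59.1% were under 1 in S11. Most of these differences thus set a high value against a gene not found. Over the genes found in both, the median of log2(S11/S14) on the scale of FPKM + 1 was -0.21, with quartiles of -1.33 and 1.201. Over the genes found in either it was 1.78. For the 52 astrocyte genes it was 0.47, with 13 of 48 higher in S11 and 1 higher in S14 by at least 4-fold.

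**Figure D4:**
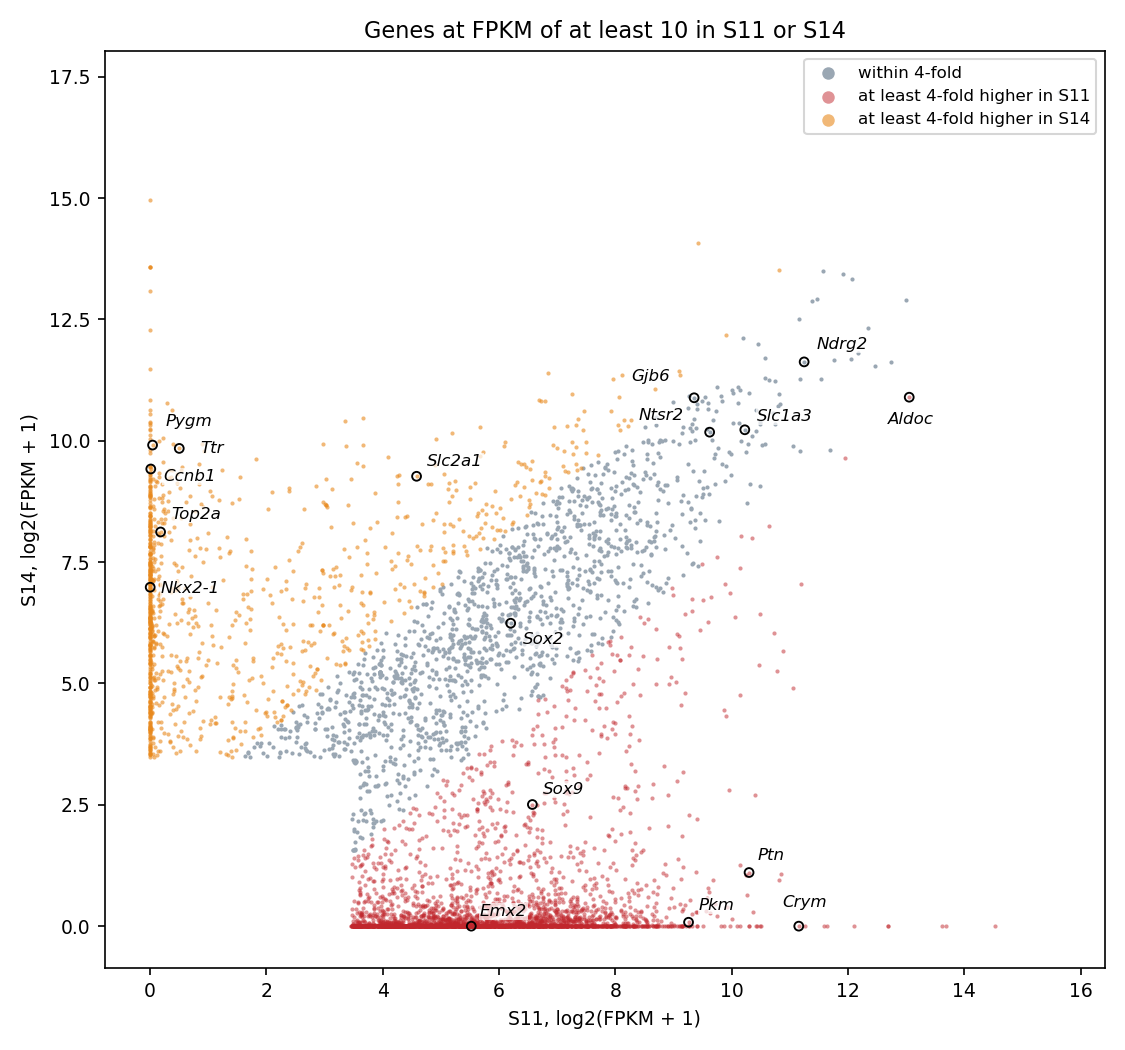
Each point is a gene at an FPKM of at least 10 in S11 or S14, placed by log2(FPKM + 1) in S11 (horizontal) and S14 (vertical). Astrocyte genes such as Slc1a3, Ntsr2 and Gjb6 lie near the diagonal, 3230 genes (red) lie at least 4-fold towards S11, most of them along the bottom edge, and 1037 (orange) towards S14.

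Transcription factors that mark position in the forebrain were mostly found in 1 of the 2 cells. Emx2 and Lhx2, factors of the dorsal telencephalon, were at 45.0 and 18.7 FPKM in S11 and listed at 0 in S14. Nr2f1, a nuclear receptor of cortical patterning, was at 85.1 in S11 and listed at 0 in S14. Of 6 such factors at 10 or more in either cell, 5 were at least 4-fold higher in S11 and 1 in S14, in a comparison in which 56.8% and 18.2% of all genes were so. The 1 gene higher in S14 was Nkx2-1, a factor of the ventral forebrain, at 125 in S14 and 0.000829 in S11. Nkx2-1 was also rare in the other 15 cells, where it reached no more than 0.110. The dorsal factors Emx2 and Lhx2 were thus in S11 and the ventral factor Nkx2-1 was in S14, in 1 cell each.

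Glial transcription factors were found more fully in S11, with 10 of 10, than in S14, with 6. Sox2, a factor of stem cells and astroglia, was alike at 72.5 FPKM in S11 and 74.6 in S14. Sox9, a factor needed for the astrocyte fate, was at 94.2 and 4.68. Nfia was at 31.4 in S11 and 114 in S14, and Nfib was at 33.4 and 0.0897. Hes5, a target of Notch, was at 31.0 in S11, listed at 0 in S14 and at 0 in all 15 other cells. Tsc22d4 was at 1317 and 0.223. Of the 10 factors, 5 were at least 4-fold higher in S11 and none was so in S14, so the share higher in S11 (50%) was under the 56.8% of all genes.

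Of 16 genes of quiescent stem cells, 8 were found in S11 and 5 in S14, all 5 of which were also in S11. The other 15 cells had a median of 4 and at most 8, in S10. By this count both cells were within the range of the others. By the mean of log2(FPKM + 1) over the list, S11 at 2.24 was above all 15 others, the next being S9 at 2.08, and S14 was at 1.25. Vcam1, an adhesion protein of the stem cell niche, was at 325 FPKM in S11 and 93.8 in S14, with a highest other value of 84.5. Nr2e1, the stem cell factor Tlx, was at 28.1 in S11 and listed at 0 in S14, and reached no more than 0.0773 in the other cells. Among the genes of this list found in neither cell, Prom1 was at 0.172 and 0.0191, Nes was listed at 0 in both, and so was Thbs4. The median of Prom1 in the other 15 cells was 86.4. The median log2(S11/S14) over the genes of this list found in either cell was 1.69, close to the 1.78 of all genes found in either.

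Of 15 genes of activated stem cells and amplifying progenitors, 4 were found in S11 and 3 in S14. Only Egfr, the receptor of epidermal growth factor, was found in both. Egfr was at 9.02 FPKM in S11 and 16.9 in S14, and no other cell passed 1.05. Some genes of the cell cycle were high in S14 and others were not. In S14, Top2a, a topoisomerase of dividing cells, was at 277 and Ccnb1, cyclin B1, was at 683, whereas both were under 1 in S11. Aurka and Cdc20, also of mitosis and named after their values were seen, were at 103 and 140 in S14 and listed at 0 in S11. Birc5, likewise of mitosis and looked up with them, went the other way, at 11.4 in S11 and 0.167 in S14. Mki67, Cdk1 and Ccna2, which cycling cells also express, were under 0.1 in both cells. In S11, Rrm2, a subunit of ribonucleotide reductase, was at 62.8, and Pcna, the sliding clamp of replication, was at 131. S14 had Rrm2 at 0 and Pcna at 0.184. Pcna was common among the other cells, with a median of 112. The median log2(S11/S14) of this list was 2.12.

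Signalling genes were compared next, starting with Notch, by which neighbouring cells hold stem cells quiescent. Of 12 genes, 6 were found in S11 and 4 in S14. Notch1, a receptor, was at 70.8 FPKM in S11 and 1.58 in S14, and Rbpj, which carries the signal in the nucleus, was at 37.1 and 0. In S14, the target gene Hey2 was at 166 and the ligand-like protein Dner was at 158, against 0.0299 and 4.49 in S11. The targets present were thus Hes5 in S11 and Hey2 in S14, and Hes1 was alike at 11.4 and 9.47.

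BMP signals favour glial fate and quiescence in this niche. Of 14 genes, 3 were found in both cells: Bmpr1b, a receptor, at 17.6 FPKM in S11 and 9.91 in S14, Bmp7, a ligand, at 5.40 and 11.4, and Id2, a target, at 134 and 30.04. Id3, a further target, was at 114 in S11 and 0.119 in S14, and Id1 was under 1 in both. Medians of Id1 and Id3 in the other 15 cells were 113 and 130. In Hedgehog signalling, Smo, the transducer, was at 80.3 in S11 and 0 in S14, and Gli3, a transcription factor, was at 38.8 and 0.0320. Gli1, a target that reports active signalling, was listed at 0 in all 17 cells.

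Of 10 genes of FGF and EGF signalling, 4 were found in both cells: Fgfr3, Egfr, Etv5 and Spry2. Of 6 at 10 FPKM or more in either cell, 2 (33.3%) were at least 4-fold higher in S11 and 1 (16.7%) in S14. Over all genes the shares were 56.8% and 18.2%. The 1 higher in S14 was Spry2, a feedback inhibitor, at 13.6 FPKM in S11 and 59.2 in S14, with a highest other value of 17.6. The 2 higher in S11 were Fgfr2, at 102 against 0.295 in S14, and Fgf1, at 54.8 against 0.0674. For sphingosine-1-phosphate, only the receptor S1pr1 was high in both: S1pr2 was under 0.1 in both cells and S1pr3 was listed at 0. Sphk2, a kinase that makes the ligand, was at 19.9 and 0.228. The VEGF receptors Flt1 and Kdr were under 1 in both.

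Genes of energy metabolism differed between S11 and S14 about as often as genes in general. Of 14 genes of glycolysis and lactate at 10 FPKM or more in either cell, 8 (57.1%) were at least 4-fold higher in S11 and 1 in S14, against 56.8% and 18.2% of all such genes. Eno1, enolase, was at 2134 in S11 and 28.8 in S14, and Pkm, pyruvate kinase, was at 611 and 0.0572. The 1 gene higher in S14 was Slc2a1, the glucose transporter GLUT1, at 616 against 22.9. Slc2a1 was high in most other cells too, with a median of 582. Tpi1 and Pfkm, by contrast, were within 4-fold: Tpi1 was at 444 and 1014, and Pfkm at 204 and 107. Of 9 genes of fatty acid oxidation, 7 (77.8%) were at least 4-fold higher in S11. Etfa, which passes electrons from this pathway, was at 794 in S11 and 0.204 in S14, while Acadvl, for very long chains, was within 4-fold at 622 and 1005.

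Glycogen, held in brain mainly by astrocytes, is freed by phosphorylases. Pygb, the brain form, was high in both cells, at 698 FPKM in S11 and 363 in S14, with a highest other value of 127. Pygm, the muscle form, was at 962 in S14 and 0.0295 in S11. Ugp2, which makes the glucose donor for glycogen, was at 446 in S11 and listed at 0 in S14. Pygm was thus high in S14 alone of the pair, and Ugp2 in S11 alone. Metallothioneins were alike: Mt1 was at 1373 and 1594, Mt2 at 564 and 361, and Mt3, the brain form, at 1472 and 957.

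Outside the lists, the genes with the largest ratios were of mixed function. Towards S11 they included Crym, a thyroid hormone binding protein, at 2277 FPKM and listed at 0 in S14, and the proteasome subunit Psmb4, at 1832 and 1.11. Towards S14 they included Snrpe, a spliceosome protein, at 1579 and listed at 0 in S11, and Surf1, an assembly factor of cytochrome oxidase, at 1327 and 0. Igsf1 was at 1209 and 0, with a highest other value of 42.5. Psmb4 and Snrpe are genes of every cell, and they were at medians of 757 and 264 in the other 15 cells. Of 9 housekeeping genes, 8 were found in S11 and 7 in S14. Hprt was listed at 0 in both and Tbp was at 174 in S11 and 0 in S14.

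Filament genes of stem cells and reactive astrocytes were low in both cells. Gfap was at 5.89 FPKM in S11 and 0.0261 in S14. It was also low in most other cells, with a median of 0.0335, but 5 of them had at least 1 and S9 had 543. Vim, vimentin, was at 1.24 and 0.466, against a median of 1008 in the other cells. S100b, a calcium binding protein of astrocytes and other glia, was at 36.05 and 73.97, and S100a6 was under 1 in both. Of 11 genes of reactive astrocytes, S11 had 1 and S14 had none. The 1 gene was H2-D1, a class I histocompatibility gene, at 226 in S11, close to the median of 224 in the other cells. Lcn2, Gbp2, C3, Timp1, Steap4 and Hspb1 were listed at 0 in both.

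Immediate early genes, which respond within minutes to activity or to the handling of cells, were also low in both cells, as they were in some of the others. Of 12 genes, 4 were found in S11 and 3 in S14, whereas the other cells had a median of 11. S14 had the lowest count of all 17 cells, but S11 did not stand apart: S7 and S13 also had 4, S4 had 6 and S15 had 7. Both cells lay below the median of the others for 10 of the 12. Jun, Atf3, Egr1, Nr4a1 and Zfp36 were under 1 in both cells, with medians of 124, 179, 64.3, 12.5 and 60.7 in the others. Fos was at 323 in S11 and 5.85 in S14, with a median of 228 elsewhere. Btg2 was the only one of the 12 at a high level in S14, at 300. Of 11 genes in this list at a median of at least 10 in the other cells, 6 were under 1 in both S11 and S14. The same held for 368 of all 2654 genes at such a median, or 13.9%, by a limit chosen after these values were seen.

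Markers of other cell types were counted to see what else the 2 libraries held. Of 12 endothelial genes S11 had 3 and S14 had none, against a median of 10 in the other cells. Cldn5, a tight junction protein of vessels, was at 0.116 and 0.684 FPKM, with a median of 1114 in the others. In S11, however, Ly6a was at 144, Ly6c1 at 5.79 and Pecam1 at 1.52. Of 12 microglial genes, none was found in either cell. Of 12 ependymal genes, S14 had none and S11 had 2, Tmem212 at 1.10 and Dynlrb2 at 1.203, and Foxj1 was under 0.1 in both. All 15 genes not expressed in brain were listed at 0 in both cells.

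A few markers of other types stood alone at a high level. In S14, Ttr, made by the choroid plexus, was at 917 FPKM, and the other 7 genes of that list were at or near 0. Vtn, found in pericytes, was at 224 and Col1a2, a fibroblast collagen, at 187, while Col1a1, Col3a1 and Dcn were listed at 0. In S11, Pdgfrb, a pericyte receptor, was at 75.4, while Rgs5 and Kcnj8 were at 0. S14 also held 4 of 11 neuroblast genes and 4 of 12 neuron genes, among them Cd24a at 463, Sox4 at 40.5, Gad1 at 30.3 and Stmn2 at 15.7. Stmn2 is on both lists and so adds to both counts. These counts were above those of the other 15 cells of S1 to S17, which had a median of 1 on each list. Cells S18 to S28 were not part of this comparison, and Dcx reached 564 FPKM in S26. At most, the others had 2 neuroblast genes, in S2, and 3 neuron genes, in S12. By summed FPKM, S15 was higher for the neuroblast list (1550 against 522) and S3 for the neuron list (249 against 50.9). Dcx, Sox11, Rbfox3 and Syt1, also of these lists, were under 1 in both S11 and S14. Oligodendrocyte genes were found in both: Cnp was at 199 in S11 and 266 in S14. Mbp was at 10.8 and 2.86, against 4099 in S4, and Mag and Mog were under 1. Summed over 11 genes, the oligodendrocyte list was at 235 in S11 and 315 in S14, near the median of 242 in the others and far under the 28457 of S4. The part of these genes in the differences between S11 and S14 was not tested.

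**Figure D5:**
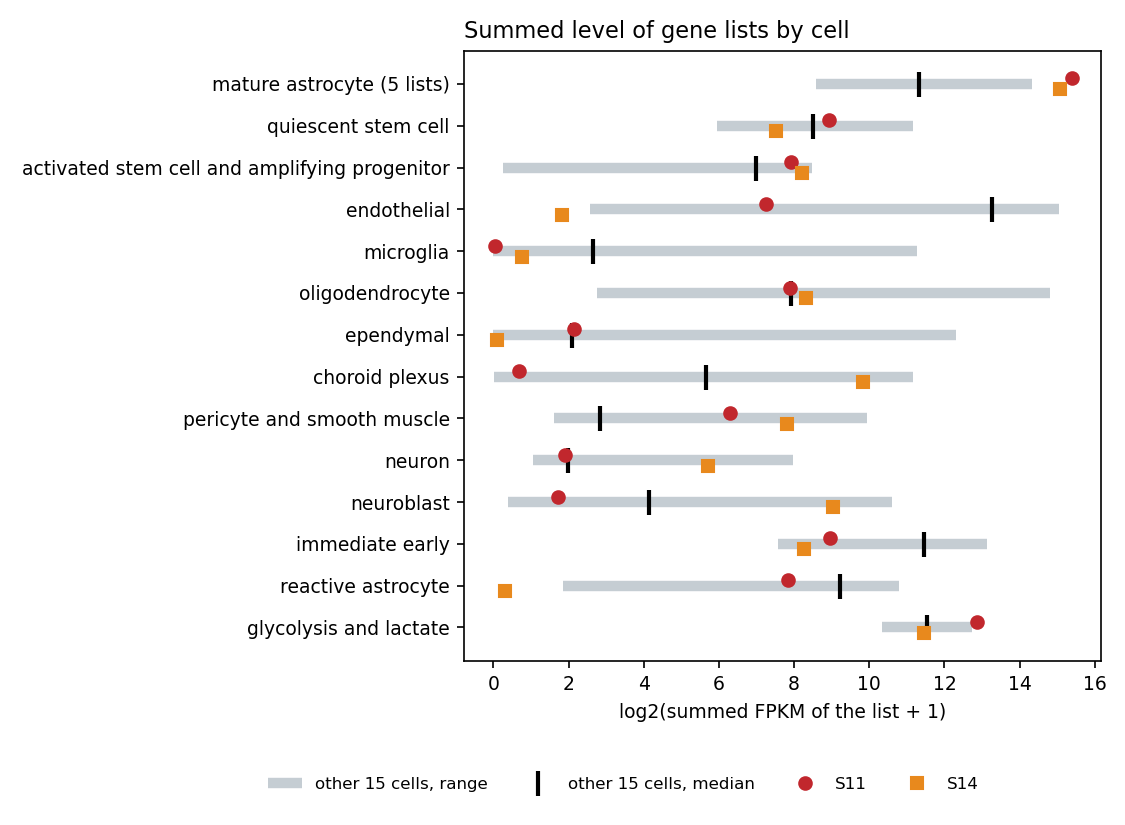
Points give log2(summed FPKM + 1) of each list in S11 (red circles) and S14 (orange squares), grey bars the range of the other 15 cells and black ticks their median. Both cells lay above all others for the 5 astrocyte lists taken as one (sums of 42715 and 34765 FPKM against at most 20746), and S11 did for glycolysis. S14 lay below all others for the endothelial and reactive lists.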

How the data were processed

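The authors deposited 1 table of FPKM per gene for 28 single cells and 4 pools. Per the submitters' processing notes it came from TopHat 1.41 and Cufflinks 2.02 on mm9. The loci match GRCm38 instead: 96.0% of 39011 lines carry a GENCODE M21 ID, and of these 99.7% lie on their GRCm38 gene. All coordinates are therefore GRCm38. Lines of one symbol were summed to 38740 symbols, and 27 symbols that had become dates were restored by gene ID. An exact 0 can be a failed estimate, so such genes are called listed at 0.

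Ratios were taken on FPKM + 1, which understates changes of low genes. Python 3.11.15, pandas 2.3.3 and numpy 2.4.6 were used. The calls were run on shuffled data with planted folds free of noise, which checks the arithmetic and not how often genes are missed. Depth was estimated from the commonest step of FPKM times length in 2342 genes of 1 exon, with an assumed fragment length of 200 bases, and is approximate. With 2 cells no test between cells was made, no doublet caller was run, and intervals for counting error could not be given. The members, the 36 gene lists (395 of 396 entries matched) and the rules were chosen with earlier results of these data known.

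Genes named were 20 fixed markers, the 5 highest per list by the lower of both cells, list genes at least 4-fold apart with 50 FPKM or more, the 15 largest ratios against the others and in each direction between the cells, and the 10 most abundant in each cell. Others were named after their values were seen, as examples of counts or as genes not found. Some genes are not reported here.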

Additional observations from a re-analysis of the deposited data

Results flagged for a closer look

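In pool 4, the 4 astrocyte markers were far above their levels in the other 3 pools, by more than Dixon's 95% limit, which chance passes in about 1 of 20 groups. This is no independent evidence, and that rate does not apply here. Acsbg1 chose S11 and S14, and pool 4 was close to a weighted sum of 7 cells that include both. The mean log2(FPKM + 1) of the 52 astrocyte genes was also checked and did not pass the limit. It was 6.37 in pool 4 and 3.21, 2.50 and 2.58 in pools 1 to 3. Acsbg1 was at 81.8 FPKM in pool 4 and listed at 0 in the other 3. Slc1a3 was at 369, Slc1a2 at 120 and Gja1 at 86.3 in pool 4. The weighted sum of the 7 cells was 84.5 for Acsbg1, 354 for Slc1a3, 101 for Slc1a2 and 77.0 for Gja1.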

How the results depend on the processing

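No paired analysis was possible because the results come from no test and the cells carry no shared numbers. The same 2 cells were chosen at 50 and 200 FPKM of Acsbg1. Genes found at an FPKM of 10 were 4740 in S11 and 2502 in S14, and at 0.1 S14 had 6926. The 68 genes above all other cells became 43 with a pseudocount of 10, 41 at 8-fold, and 111 without S9, S10 and S15, an alternative chosen after seeing the data; asked of 1 cell alone, they were 348 to 464. Genes higher in S11 became 2138 with a pseudocount of 10. The median log2 ratio of S11 over S14 for astrocyte genes was 0.32 with equal protein-coding sums and 1.14 with upper-quartile scaling. For quiescent genes it was 2.18 and 0.63 at pseudocounts of 0.1 and 10, 2.17 with upper-quartile scaling and 0.10 with no filter. For activated genes these values were 3.33, 0.97, 2.53 and 0.00. No direction reversed under these settings, though the last value has none. The cause was not tested. With 1 library per cell, genes at 0 in S14 may be missed rather than absent.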
